A study of Mus musculus with 16 samples.

Results

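The heat shock and unfolded protein response genes described here are 38 genes of protein folding, found by symbol among the 27998 genes of the deposited single-cell count matrices. All 38 were found. They were kept as 2 arms, with 17 heat shock members that act in the cytosol, nucleus or mitochondria and 21 members of the endoplasmic reticulum (ER) response. Their transcripts were counted as UMIs (unique molecular identifiers, one per captured RNA molecule) and summed per library and per cell class.

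The heat shock response is driven by the transcription factor Hsf1, which binds repeats of a short motif in the promoters of chaperone genes when unfolded protein builds up in the cytosol. The Hsp70 and Hsp90 chaperones, their J-domain partners and the small heat shock proteins then hold or refold the clients. In the ER, the sensors Ern1 and Atf6 and the factors Xbp1, Atf4 and Ddit3 raise chaperones such as Hspa5, lectins such as Calr, disulfide isomerases and degradation factors. In kidney, heat shock proteins are known for high levels in the inner medulla, where cells face high salt and urea, and as transcripts that respond to tissue dissociation.

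The data come from kidneys of Gulo-/- and wild type mice, both on the strain given as C57BL/6. Mice without Gulo, whose product completes vitamin C synthesis, depend on the vitamin from outside. Age, diet and vitamin C supply were not stated in the labels. The kidney tissue was minced, mixed and split between assays, and the labels do not say which or how many animals each library holds, so each p-value reflects the spread among these 4 samples alone. The groups used were 2 Gulo-/- and 2 wild type single-cell libraries, beside the authors' table of methylation differences between the genotypes.

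Total depth was 10073836 and 88925323 UMIs in the Gulo-/- libraries and 10208946 and 61688164 UMIs in the wild type libraries, so each genotype had a shallow replicate 1 and a deep replicate 2. After filtering, 1877 and 13962 barcodes were kept in Gulo-/- libraries and 1595 and 7541 in wild type libraries. Gulo itself had 0 and 2 UMIs in Gulo-/- libraries and 0 and 2 UMIs in wild type libraries, so its counts could not check the genotype labels. In kept barcodes, Xist and Ddx3y counts gave a male replicate 1 and a female replicate 2 in Gulo-/-. They gave a female replicate 1 and a male replicate 2 in wild type, so replicates of a genotype came from different animals. Wild type replicates 1 and 2 shared 986 barcodes where 33.5 were expected by chance, and the shared barcodes were removed from replicate 2. Profiles of the same barcode in both correlated at a median of 0.881, against 0.576 for mismatched ones. Before filters and this removal wild type replicate 2 had 2168 Xist and 1952 Ddx3y UMIs, against 5 and 1793 in its kept barcodes. Proximal tubule-like cells were 49.2% and 21.4% of kept barcodes in Gulo-/- libraries and 82.5% and 84.6% in wild type libraries. Classes were gated by marker UMIs and carry "-like". Among the 10 leading genes of each of the 12 classes at least 1 was one of its own markers and 0 were markers of another class. The gate chose cells by these markers, so this was largely set in advance and does not check the classes.

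Promoter sequences are shown first, for members whose letters hold the motif of their arm. RefSeq windows of 250 bases before to 50 after a transcription start (GRCm38.p6) were found for 31 of the 38 members, and the rest were not searched. The heat shock element was searched as GAANNTTCNNGAA and, for the other strand and the opposite phase, TTCNNGAANNTTC, and the 2 patterns can overlap. It was present in promoters of 179 of 27025 genes (0.662%) and in 3 members, Hspd1, Hspe1 and Hsph1. The ER stress response element was searched as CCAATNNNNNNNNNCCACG and its reverse complement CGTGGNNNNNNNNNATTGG. It was present in 37 of 27025 genes (0.137%) and in 7 members, all of the ER arm: Calr, Canx, Creld2, Dnajc3, Hsp90b1, Hspa5 and Pdia6. Another pattern, the C/EBP-ATF composite TGATGNAAT on either strand, was in 1.08% of genes and in 0 members. A match is a run of letters, not a bound site. Below, capitals mark the matches, on the strand of the gene, and every sequence is from RefSeq.
Hspe1 (chr1:55087898-55088197, plus strand): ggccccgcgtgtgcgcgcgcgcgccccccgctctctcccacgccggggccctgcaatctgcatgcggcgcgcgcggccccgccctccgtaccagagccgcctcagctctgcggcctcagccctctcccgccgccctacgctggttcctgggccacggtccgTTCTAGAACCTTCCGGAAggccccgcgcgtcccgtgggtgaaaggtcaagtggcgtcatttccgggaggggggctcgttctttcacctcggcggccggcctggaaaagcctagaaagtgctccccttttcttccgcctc
Hsph1 (chr5:149636266-149636565, minus strand): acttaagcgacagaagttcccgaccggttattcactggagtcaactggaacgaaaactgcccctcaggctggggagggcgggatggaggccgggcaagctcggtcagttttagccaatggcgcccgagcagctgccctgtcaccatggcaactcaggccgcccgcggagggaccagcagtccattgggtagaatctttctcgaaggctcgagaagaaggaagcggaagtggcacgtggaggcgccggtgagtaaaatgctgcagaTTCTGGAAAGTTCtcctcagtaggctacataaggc
Hspa5 (chr2:34771840-34772139, plus strand): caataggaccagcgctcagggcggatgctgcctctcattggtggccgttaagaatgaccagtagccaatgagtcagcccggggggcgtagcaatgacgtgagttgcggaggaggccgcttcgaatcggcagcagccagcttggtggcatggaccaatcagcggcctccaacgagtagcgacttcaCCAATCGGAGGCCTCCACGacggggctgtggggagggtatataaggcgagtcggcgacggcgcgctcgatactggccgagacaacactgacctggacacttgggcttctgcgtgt
Hsp90b1 (chr10:86705395-86705694, minus strand): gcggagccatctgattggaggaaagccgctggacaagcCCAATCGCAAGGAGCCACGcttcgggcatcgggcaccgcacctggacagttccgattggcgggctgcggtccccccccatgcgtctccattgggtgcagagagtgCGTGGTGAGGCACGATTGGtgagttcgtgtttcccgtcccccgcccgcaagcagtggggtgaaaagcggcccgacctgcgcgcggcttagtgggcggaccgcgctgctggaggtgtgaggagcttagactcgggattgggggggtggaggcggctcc
Hspe1 and Hspd1, the co-chaperonin and the chaperonin of the mitochondrial matrix, lie head to head, and the same letters are the match in both promoters. In Hspe1 they hold 2 overlapping matches that begin 89 and 84 bases before the start. In Hsph1, an Hsp110 exchange factor for Hsp70, the match begins 15 bases after the start of the window shown and 36 bases after another start. The gene model reaches chr5:149636498, so both starts lie inside it. In Hspa5, the ER Hsp70, the match begins 65 bases before the start, and in Hsp90b1, the ER Hsp90, matches begin 212 and 107 bases before it.

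The first comparison asked in which kidney cells the members were expressed, by setting each class against proximal tubule-like cells of the same library. The stress-inducible Hsp70 genes Hspa1a and Hspa1b were higher in the other classes tested, most of all in macrophage-like and endothelial-like cells. The mitochondrial pair Hspd1 and Hspe1 was lower in every class tested. Many ER members were higher in thick ascending limb-like, endothelial-like and macrophage-like cells. Called here means a Benjamini-Hochberg adjusted p under 0.05 in edgeR over all genes tested.

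In thick ascending limb-like cells, which reabsorb salt, 15 of 36 members tested were called higher, against 22.1% of all genes, and 4 lower, against 25.3%. In distal convoluted and connecting tubule-like cells 7 of 37 were higher, against 19.3% of all genes, and 6 lower, against 26.5%. In endothelial-like cells 18 of 38 were higher, against 30.6%, and 5 lower, against 30.7%. In macrophage-like cells 13 of 36 were higher, against 19.2%, and 3 lower, against 29.7%. The distal tubule share was close to the share of all genes, and the other 3 held more higher calls than that share. Trib3 and Hspb8 were too low in proximal tubule-like cells to test there, so they could enter only through a class where they were higher. Among genes that passed the filter on low counts within proximal tubule-like cells too, 16 of 36 members were higher in endothelial-like cells, against 25% of such genes, and 6 of 36 in distal tubule-like cells, against 15.9%. In thick ascending limb-like cells 11 members were called without Gulo-/- replicate 1, against 19 with it. Calls over all genes were not compared between these fits, so a change particular to the members was not tested. By arm, 11 of 20 ER members were called higher and 0 lower in thick ascending limb-like cells, and 8 of 20 higher and 0 lower in macrophage-like cells. In endothelial-like cells 10 of 21 ER members were higher and 2 lower, where the 10 include Trib3, which could enter only as higher. In distal tubule-like cells 4 of 20 were higher and 2 lower. The median ER member was 0.56 log2 units higher than in the proximal tubule in thick ascending limb-like cells and 0.79 in macrophage-like cells, beside 0.01 and -0.28 for all genes tested.

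**Figure D1:**
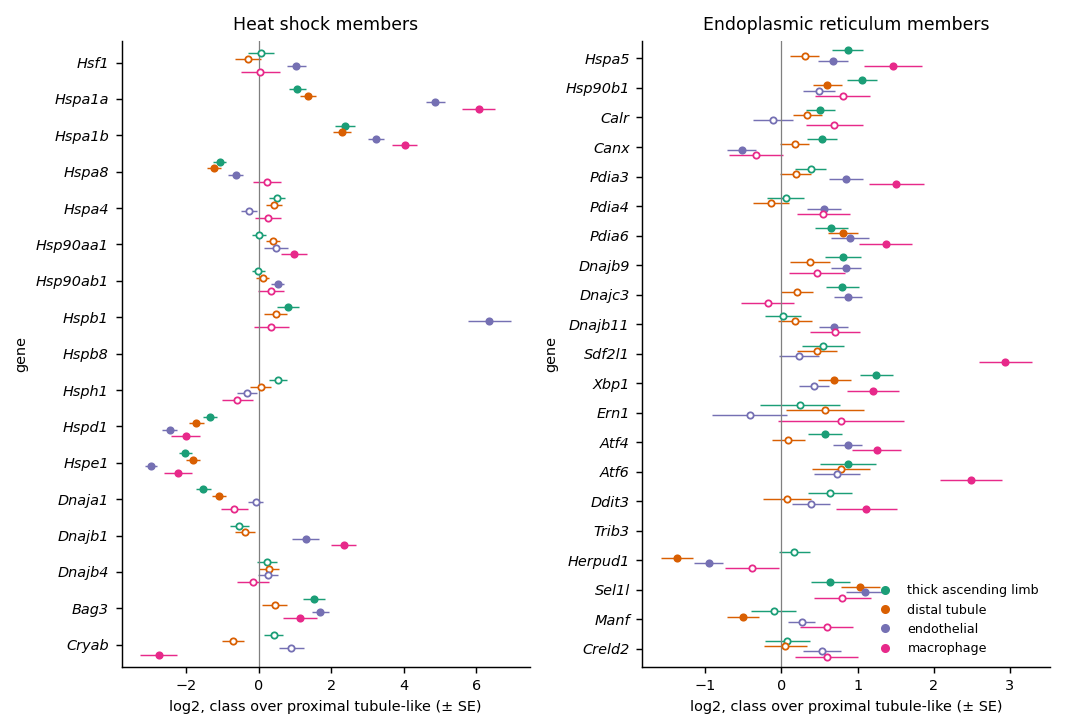
Log2 difference of each member between a class and proximal tubule-like cells of the same libraries (x axis, ± SE from edgeR), for heat shock members (left) and ER members (right). Filled points passed an adjusted p of 0.05 and open points did not, and Hspb8 and Trib3, too low in proximal tubule-like cells, are not drawn. Hspa1a and Hspb1 reach 6.06 and 6.36 log2 units, while Hspd1 and Hspe1 lie below 0 in all 4 classes.

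Hspa1a had 1365 and 2656 CPM (counts scaled to a common library size by TMM, the trimmed mean of M-values, over both classes) in macrophage-like cells of Gulo-/- libraries and 2760 and 1816 CPM in those of wild type libraries, against 35, 41.6, 35.2 and 18.2 CPM in proximal tubule-like cells of the same libraries. Every macrophage value lay far above every proximal tubule value, and the difference was 6.06 ± 0.46 log2 units (SE, edgeR adjusted p = 9.1e-39). The difference was 4.87 ± 0.27 in endothelial-like cells, 1.36 ± 0.21 in distal tubule-like cells and 1.07 ± 0.23 in thick ascending limb-like cells, all called. Its near-identical neighbour Hspa1b differed by 4.02, 3.24, 2.3 and 2.38 log2 units in the same order of classes, all called. Reads of the 2 genes may have been split between them, so their separate levels are uncertain. Free RNA can give a UMI to a cell that does not express a gene, so shares of cells are given beside a class at low level. The share of barcodes with an Hspa1a UMI, after thinning each to 1500 UMIs, was 60.9% and 75.8% in Gulo-/- macrophage-like cells and 71.0% and 67.7% in wild type ones. With the same thinning it was, in proximal tubule-like cells, 3.59% and 5.15% in Gulo-/- libraries and 1.37% and 1.93% in wild type libraries. Before thinning the macrophage shares were 59.6% and 83.8% in Gulo-/- and 74.2% and 79.6% in wild type, and the proximal tubule shares 9.75% and 11.8% in Gulo-/- and 4.79% and 7.90% in wild type. Median depths were 2155.5, 3038, 4372 and 4423 UMIs in macrophage-like cells and 3470, 3186, 3888.5 and 5144 UMIs in proximal tubule-like cells, and 6 and 116 cells of Gulo-/- replicate 1 were too shallow to thin.

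Hspb1, a small heat shock protein that binds actin filaments, was highest in endothelial-like cells among the classes tested. It had 1552 and 504 CPM in endothelial-like cells of Gulo-/- libraries and 3115 and 474 CPM in those of wild type libraries, against 33.5, 12.1, 10.5 and 5.17 CPM in proximal tubule-like cells. Endothelial values exceeded proximal ones in 4 of 4 libraries, by 6.36 ± 0.60 log2 units (edgeR adjusted p = 0.000239). Trib3, a pseudokinase target of Atf4 and Ddit3, had 10 and 35 UMIs in endothelial-like cells of Gulo-/- libraries and 11 and 4 UMIs in those of wild type libraries, against 2, 4, 0 and 3 UMIs in their proximal tubule-like cells. The small heat shock protein gene Hspb8 had 4, 11, 2 and 6 UMIs in endothelial-like cells and 0, 4, 0 and 41 UMIs in proximal tubule-like cells. These counts were too low for a fold to be given. The Hsp70 nucleotide exchange factor Bag3 was called higher in thick ascending limb-like (1.52), endothelial-like (1.70) and macrophage-like cells (1.13 log2 units).

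Hspe1 had 177, 118, 260 and 205 CPM in endothelial-like cells of Gulo-/- replicates 1 and 2 and wild type replicates 1 and 2, against 1231, 1049, 2035 and 1578 CPM in their proximal tubule-like cells. It was lower by 2.97 ± 0.17 log2 units there, and the difference was -2.03 in thick ascending limb-like, -1.81 in distal tubule-like and -2.23 in macrophage-like cells, all called. Hspd1 differed by -2.46, -1.34, -1.72 and -2.02 log2 units in the same classes, all called. Their gene models overlap at the 5′ ends, and the use of strand in counting was not stated, so their counts may be partly shared. The constitutive Hsp70 gene Hspa8 and the J-domain partner Dnaja1 were called lower in thick ascending limb-like cells (-1.08 and -1.53) and distal tubule-like cells (-1.24 and -1.09).

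Among ER members, Sdf2l1, a partner of ER J-domain proteins, was 2.94 ± 0.35 log2 units higher in macrophage-like cells, and the sensor Atf6 2.49 ± 0.41. The disulfide isomerases Pdia3 and Pdia6 were higher there by 1.51 and 1.37, Hspa5 by 1.46 and the stress-translated factor Atf4 by 1.25. In thick ascending limb-like cells Xbp1, whose spliced form switches on ER chaperones, was 1.24 ± 0.22 higher, Hsp90b1 1.06 ± 0.20 and Hspa5 0.87 ± 0.20 higher. Herpud1, a scaffold of ER-associated degradation, ran the other way and was called lower in distal tubule-like (-1.38) and endothelial-like cells (-0.96).

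Cryab, the alpha-B crystallin chaperone (chr9:50745951-50756636 in GRCm38.p6), had its highest level in thin limb-like cells, at 6385 and 5571 CPM of non-mitochondrial UMIs in Gulo-/- libraries and 13050 and 11620 CPM in wild type libraries. These rest on 13 and 182 cells in Gulo-/- and 4 and 4 cells in wild type, too few for a test. Principal-like cells of the collecting duct had 355 and 445 CPM in Gulo-/- libraries and 495 and 841 CPM in wild type libraries, on 101, 746, 3 and 41 cells in that order. Barcodes assigned to no class had 1856 and 1341 CPM in Gulo-/- libraries and 1063 and 733 CPM in wild type libraries. Among the 5 classes with enough cells to test, macrophage-like cells had the lowest level, at 17.6 and 16.8 CPM in Gulo-/- libraries and 0 and 5.41 CPM in wild type libraries, on 2, 5, 0 and 2 UMIs. They stood 2.76 ± 0.51 log2 units below proximal tubule-like cells (edgeR adjusted p = 3.14e-07). In the authors' deposited table of cluster markers, which lists 8 of the 38 members, Cryab had its highest ratio in a cluster they named EPI, at 3.003 on the natural log scale, with a UMI in 85.9% of its cells against 19.6% of others.

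**Figure D2:**
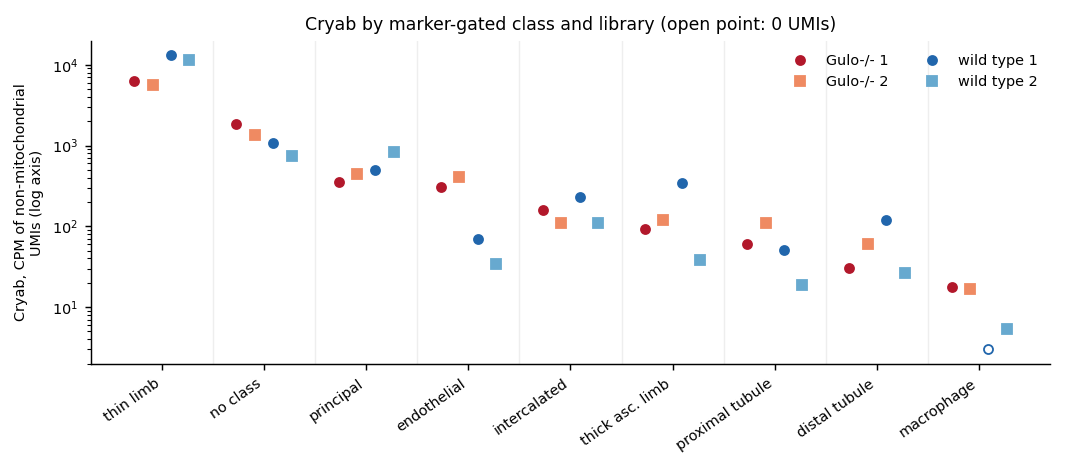
Cryab level (y axis, CPM of non-mitochondrial UMIs, log axis) in 8 marker-gated classes and in barcodes of no class, with Gulo-/- replicates 1 and 2 left of wild type replicates 1 and 2. Thin limb-like cells reach 13050 CPM, and in endothelial-like cells both Gulo-/- points (307 and 405) lie above both wild type points (70.1 and 34.0).

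The second comparison set Gulo-/- against wild type within each class. Of all members in 5 classes and the sum of all barcodes, 1 was called, Cryab in endothelial-like cells, which rose in Gulo-/-. In proximal tubule-like cells Hsph1, Hsp90aa1, Hsp90ab1 and Dnaja1 were lower in both Gulo-/- libraries than in both wild type libraries, without passing the adjusted threshold. In macrophage-like cells 8 of 16 ER members, Hspa5, Hsp90b1 and Calr among them, stood in the same order, against 18.9% of all genes. These too did not pass the adjusted threshold. In a fit with 1 library left out, 1 genotype has a single library, which is assumed to vary like the other genotype's pair, so a call there is no sign of stability.

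**Figure D3:**
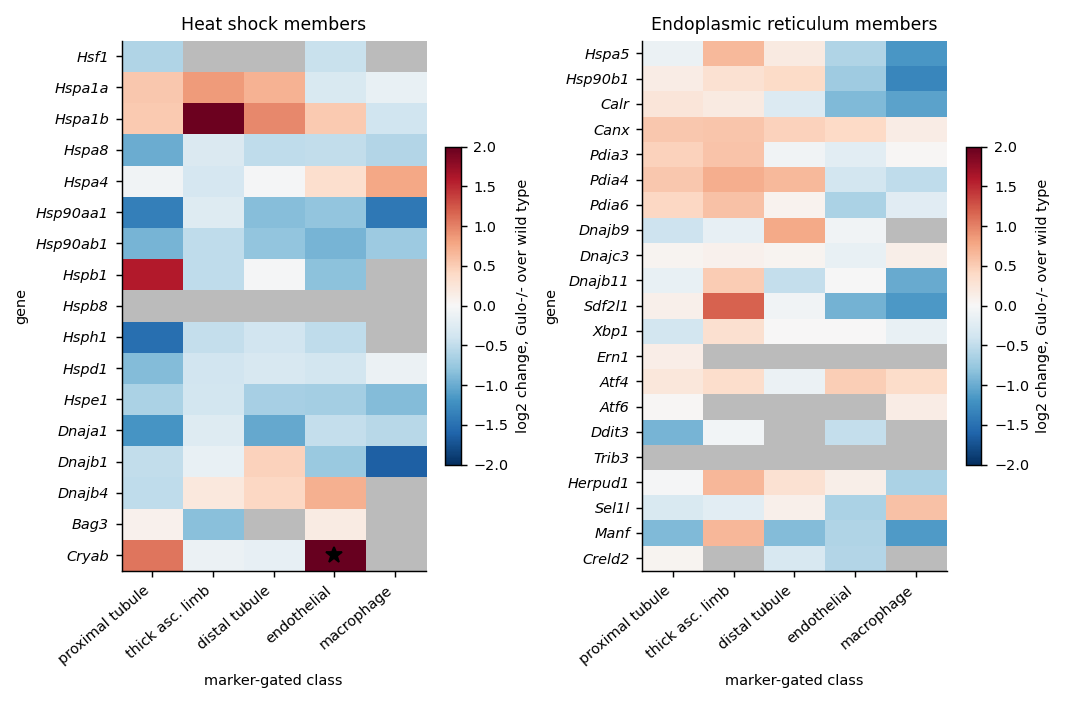
Log2 change of each member, Gulo-/- over wild type, in 5 classes (columns), for heat shock members (left) and ER members (right). Red is higher in Gulo-/-, blue lower, colours stop at 2 log2 units either way, grey is not tested, and the star marks the 1 called value, Cryab in endothelial-like cells at 2.78.

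In endothelial-like cells, which line the vessels, 304 and 845 cells were gated in Gulo-/- libraries and 88 and 144 in wild type libraries. There 28 of 6809 genes (0.411%) were called, among them 1 of the 34 members tested. Cryab had 282 and 343 CPM (TMM-scaled within the class) in Gulo-/- libraries, against 62.8 and 29.7 CPM in wild type libraries. Both Gulo-/- libraries lay above both wild type libraries, by 2.78 ± 0.36 log2 units (SE, edgeR adjusted p = 0.0304). The UMIs behind these values were 200 and 1468 in Gulo-/- and 23 and 13 in wild type. DESeq2 called Cryab too, as 1 member against 1.16% of all genes. With each library left out in turn Cryab was called each time, at 2.29 to 3.40 log2 units, while 0.916% to 2.6% of all genes were called. It was 2.82 with sex as a block and no longer called (adjusted p = 0.151 in edgeR). That fit called 0 of 6809 genes. Mitochondrial UMIs were 11.6% and 9.58% of the class in Gulo-/- libraries and 11.3% and 25.3% in wild type libraries, and their part in the result was not tested.

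The Cryab UMIs were held by few endothelial-like cells. The 10 highest cells carried 65.5% and 70.0% of them in Gulo-/- libraries, with up to 28 and 226 UMIs in 1 cell, and in wild type libraries 8 and 7 cells carried all of them, with up to 12 and 5 UMIs in 1 cell. After thinning each barcode to 1500 UMIs, a Cryab UMI was found in 14.7% and 12.3% of Gulo-/- cells (95% exact binomial intervals 10.3 to 19.98 and 10.2 to 14.7) and in 5.68% and 2.78% of wild type cells (1.87 to 12.8 and 0.762 to 6.96). The intervals cover counting error only, and 79 cells of Gulo-/- replicate 1 were too shallow to thin. Before thinning the shares were 15.1% and 22.2% in Gulo-/- and 9.09% and 4.86% in wild type, at median depths of 1860, 3327, 3527 and 3151 UMIs. In macrophage-like cells, which gave the background, thinned shares were 2.17% and 1.01% in Gulo-/- libraries and 0% and 1.08% in wild type libraries, where 0 of 31 cells allows up to 9.68%. Proximal tubule-like cells had 3.72% and 9.39% in Gulo-/- and 3.27% and 1.82% in wild type.

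Markers of other cell types were read in the same endothelial-like cells. The 5 thin limb markers summed to 13.8 and 13.3 CPM in Gulo-/- libraries and 48.8 and 18.3 CPM in wild type libraries, on 9, 48, 16 and 7 UMIs. In cells with 0 UMIs of those markers (295 and 798 in Gulo-/-, 74 and 138 in wild type) Cryab was called at 2.64 log2 units, in a choice of cells made after seeing the data. In thin limb-like cells of Gulo-/- libraries the markers summed to 2701 and 4109 CPM, below the Cryab level given above. A cell with 0 UMIs of the markers can thus still hold thin limb RNA, whose part was not tested. The 6 principal cell markers summed to 148 and 408 CPM in Gulo-/- libraries and 9.15 and 73.1 CPM in wild type libraries, all 6 with a UMI except in wild type replicate 1, where 1 was seen. The 6 thick ascending limb markers summed to 310 and 1145 CPM in Gulo-/- libraries and 104 and 269 CPM in wild type libraries, with 4, 6, 4 and 5 of them seen. The 12 proximal tubule markers, all seen in each library, summed to 908 and 888 CPM in Gulo-/- libraries and 1650 and 2889 CPM in wild type libraries, and the 9 endothelial markers to 8202 and 6422 CPM in Gulo-/- and 11030 and 10536 CPM in wild type. The principal cell and thick ascending limb markers were higher in both Gulo-/- libraries, as Cryab was, and the part of these markers in the result was not tested.

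Of the 34 members tested in endothelial-like cells, 11 of 16 heat shock members and 14 of 18 ER members had a negative log2 change, with medians of -0.46 and -0.42 beside 0.01 for all 6809 genes. Both Gulo-/- libraries lay below both wild type libraries for 12 of 34 members, against 19.9% of all genes. Both lay above for 3 of 34, against 21.5%. At an unadjusted p under 0.05 there were 4 members, against 10.4% of all genes. The summed heat shock arm was highest in wild type replicate 1, with 8173 and 5089 CPM in Gulo-/- libraries and 14220 and 5035 CPM in wild type libraries. In both genotypes replicate 1 was above replicate 2. Hspa1a shows the pattern, at 1600 and 1032 CPM in Gulo-/- against 2532 and 726 CPM in wild type, with overlapping groups. Without wild type replicate 2, the Hsp70 partner Dnajb1 was also called, at a log2 change of -1.58, on 93.2 and 90.3 CPM in Gulo-/- against 268 CPM in the wild type library left, in a fit that called 1% of all genes. Without wild type replicate 1, which leaves 43.4 CPM, the change was 1.08 and not called.

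Proximal tubule-like cells, which reabsorb most of the filtrate, numbered 923 and 2991 in Gulo-/- libraries and 1316 and 6383 in wild type libraries. Of 11219 genes, 49 (0.437%) were called and 0 of 36 members, with Hspb8 and Trib3 too low to test. At an unadjusted p under 0.05 the count was 8 members, against 16.3% of all genes, and DESeq2 called 4, against 3.6%. Among the 16 heat shock members tested, 9 had both Gulo-/- libraries below both wild type libraries and 2 had them above. Over both arms 14 of 36 members lay below, against 24.3% of all genes, and 7 above, against 25.9%. The median heat shock change was -0.55 log2 units, beside 0.04 for all genes, and the median ER change was 0.06. In the same cells the 6 principal cell markers, all seen in each library, summed to 167 and 467 CPM in Gulo-/- libraries and 31.5 and 80.4 CPM in wild type libraries, and the 9 endothelial markers, all seen, to 101 and 86.5 CPM in Gulo-/- and 18.2 and 19.5 CPM in wild type. The 12 proximal tubule markers summed to 17093 and 18406 CPM in Gulo-/- libraries and 30204 and 20407 CPM in wild type libraries. These sums separated by genotype, and their part in the changes was not tested.

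Hsph1 had 13.5 and 13.7 TMM-scaled CPM in Gulo-/- proximal tubule-like cells, against 44.2 and 33.8 CPM in wild type ones. The groups were well apart, at -1.51 ± 0.26 log2 units, with an edgeR adjusted p of 0.067. Hsp90aa1, the inducible cytosolic Hsp90, had 134 and 152 CPM in Gulo-/- libraries, against 435 and 304.5 CPM in wild type libraries. It too did not overlap, at -1.37 ± 0.27 (edgeR adjusted p = 0.0885), and without wild type replicate 2 it was called at -1.63 (adjusted p = 0.0468), among 0.567% of all genes. Dnaja1 had 163 and 138 CPM in Gulo-/- libraries, against 410 and 274 CPM in wild type libraries, again apart, at -1.18 ± 0.28 (adjusted p = 0.128). The constitutive Hsp90ab1 had 367 and 470 CPM in Gulo-/- libraries and 902 and 689 CPM in wild type libraries (-0.93 ± 0.28, adjusted p = 0.19).

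**Figure D4:**
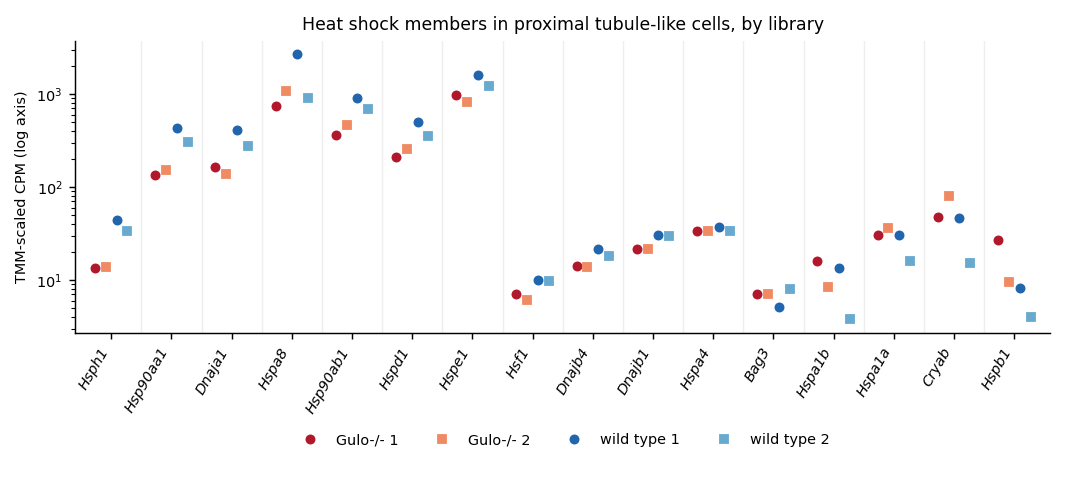
TMM-scaled CPM (y axis, log axis) of the 16 heat shock members tested in proximal tubule-like cells, ordered by log2 change from lowest to highest, with Gulo-/- libraries (reds) left of wild type libraries (blues). From Hsph1 (13.5 and 13.7 against 44.2 and 33.8) to Dnajb1, most pairs of Gulo-/- points lie below both wild type points. Hspa8 is one that overlaps.

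The mitochondrial pair stood the same way in the proximal tubule. Hspd1 had 212 and 255 CPM in Gulo-/- libraries, against 496 and 357 CPM in wild type libraries, and Hspe1 984 and 829 CPM in Gulo-/-, against 1593 and 1230 CPM in wild type. Neither overlapped, and the changes of -0.87 ± 0.27 and -0.64 ± 0.28 were not called. Hspa8 overlapped, since wild type replicate 1 had 2696 CPM and the others 747 and 1068 CPM in Gulo-/- and 906 CPM in wild type. The inducible Hsp70 genes did not separate. Hspa1a had 30.2 and 36.3 CPM in Gulo-/- libraries and 30.6 and 15.9 CPM in wild type libraries, and Hspa1b 16.0 and 8.41 CPM in Gulo-/- and 13.6 and 3.79 CPM in wild type, both with overlap. Hspb1 had 26.8 and 9.52 CPM in Gulo-/- libraries, against 8.21 and 4.03 CPM in wild type libraries, at 1.59 ± 0.63 log2 units (not called).

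In the ER arm of the proximal tubule, 5 of 20 members had both Gulo-/- libraries above both wild type libraries, against 25.9% of all genes. Another 5 had them below, against 24.3%. Canx, the membrane lectin of the calnexin cycle, had 165 and 167 CPM in Gulo-/- libraries, against 116 and 111 CPM in wild type libraries (0.55 ± 0.21, adjusted p = 0.264 in edgeR). Manf, a secreted ER factor, had 47.7 and 50.3 CPM in Gulo-/- libraries, against 113 and 68.2 CPM in wild type libraries (-0.88 ± 0.28, adjusted p = 0.202). Ddit3, the CHOP factor linked to cell death under ER stress, had 10.6 and 6.92 CPM in Gulo-/- libraries, against 19.7 and 13.1 CPM in wild type libraries (-0.92 ± 0.34, adjusted p = 0.255). All 3 were apart between genotypes without being called, and Hspa5 overlapped, at 103 and 87.8 CPM in Gulo-/- and 116 and 90.1 CPM in wild type.

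Pdia4, a disulfide isomerase, had 34.7 and 37.8 CPM in Gulo-/- libraries, against 31.3 and 18.8 CPM in wild type libraries (0.55 ± 0.30), and the isomerase Pdia3 109 and 131 CPM in Gulo-/-, against 94.9 and 79.9 CPM in wild type (0.46 ± 0.22). Both were apart and not called. The remaining 9 ER effectors given by library had smaller changes. Hsp90b1 had 113.5 and 111.5 CPM in Gulo-/- libraries and 107 and 96.4 CPM in wild type libraries, and Calr 246.5 and 195.7 CPM in Gulo-/- and 197 and 177 CPM in wild type. Pdia6 had 48.9 and 69.7 CPM in Gulo-/- libraries and 45.4 and 43.6 CPM in wild type libraries, and Sdf2l1 16.2 and 17.4 CPM in Gulo-/- and 21.3 and 10.6 CPM in wild type. Hsp90b1 and Pdia6 were apart by small margins and Calr and Sdf2l1 overlapped. Xbp1 had 37.4 and 30.5 CPM in Gulo-/- libraries and 39.4 and 47.8 CPM in wild type libraries, and the ER J-domain gene Dnajb9 16.5 and 22.0 CPM in Gulo-/- and 25.5 and 25.9 CPM in wild type, both apart. Atf4 had 50.6 and 31.4 CPM in Gulo-/- libraries and 27.9 and 41.3 CPM in wild type libraries, and Herpud1 131.9 and 121.3 CPM in Gulo-/- and 164.9 and 94.0 CPM in wild type. Creld2, a secreted ER stress protein, had 15.2 and 11.9 CPM in Gulo-/- libraries and 12.98 and 12.96 CPM in wild type libraries. These last 3 overlapped, and the log2 changes of these 9 ran from -0.41 (Dnajb9) to 0.42 (Pdia6), with 0 called.

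Macrophage-like cells, the phagocytes of the kidney, numbered 52 and 99 in Gulo-/- libraries and 31 and 93 in wild type libraries. Of 2600 genes, 8 (0.308%) were called and 0 of 26 members. The unadjusted count was 7 members, against 10.4% of all genes, and DESeq2 called 0, against 0.577%. Both Gulo-/- libraries lay below both wild type libraries for 12 of 26 members, against 18.9% of all genes, and above them for 2, against 20.6%. Mitochondrial UMIs were 10.4% and 10.6% of the class in Gulo-/- libraries and 12.5% and 20.6% in wild type libraries. Thick ascending limb markers summed to 352 and 1429 CPM in Gulo-/- and 54.5 and 189 CPM in wild type, with 4, 5, 3 and 4 of 6 seen, and principal cell markers to 88.0 and 383 CPM in Gulo-/- and 0 and 48.7 CPM in wild type, with 4, 6, 0 and 4 of 6 seen. All 3 measures separated by genotype, and their part in the result was not tested. Of the 16 ER members 8 lay below. Hsp90b1 had 187 and 158 TMM-scaled CPM in Gulo-/- libraries, against 396 and 445 CPM in wild type libraries. The groups were apart, at -1.31 ± 0.35 log2 units (edgeR adjusted p = 0.17). Hspa5 had 187 and 351 CPM in Gulo-/- libraries, against 443 and 770 CPM in wild type libraries (-1.16 ± 0.43, adjusted p = 0.335 in edgeR).

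Calr, the soluble lectin that pairs with Canx, had 381 and 306 CPM in Gulo-/- macrophage-like cells, against 509 and 912 CPM in wild type ones. Its change was -1.07 ± 0.41, while Canx, at 178 and 158 CPM in Gulo-/- and 170 and 137 CPM in wild type, overlapped. Sdf2l1 had 110 and 121 CPM in Gulo-/- libraries, against 207 and 298 CPM in wild type libraries (-1.14 ± 0.38). The ER co-chaperone Dnajb11 (-1.002 ± 0.42) and Manf (-1.13 ± 0.47) were likewise apart. Without wild type replicate 1, 4 of these were called lower in Gulo-/-, Hspa5, Hsp90b1, Calr and Manf, at -1.43 to -1.51 log2 units, in a fit that called 3.89% of all genes, against 0.308% with all libraries. Without wild type replicate 2, 2 others were called, Dnajb1 (-2.39) and Hsp90aa1 (-2.14), for which wild type replicate 1 was the high library, and 4.63% of all genes were. Of the 7 members with the ER element in the promoter, 6 were tested in these cells, and their changes were -1.31 for Hsp90b1, -1.16 for Hspa5, -1.07 for Calr, -0.22 for Pdia6, 0.15 for Canx and 0.11 for Dnajc3.

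**Figure D5:**
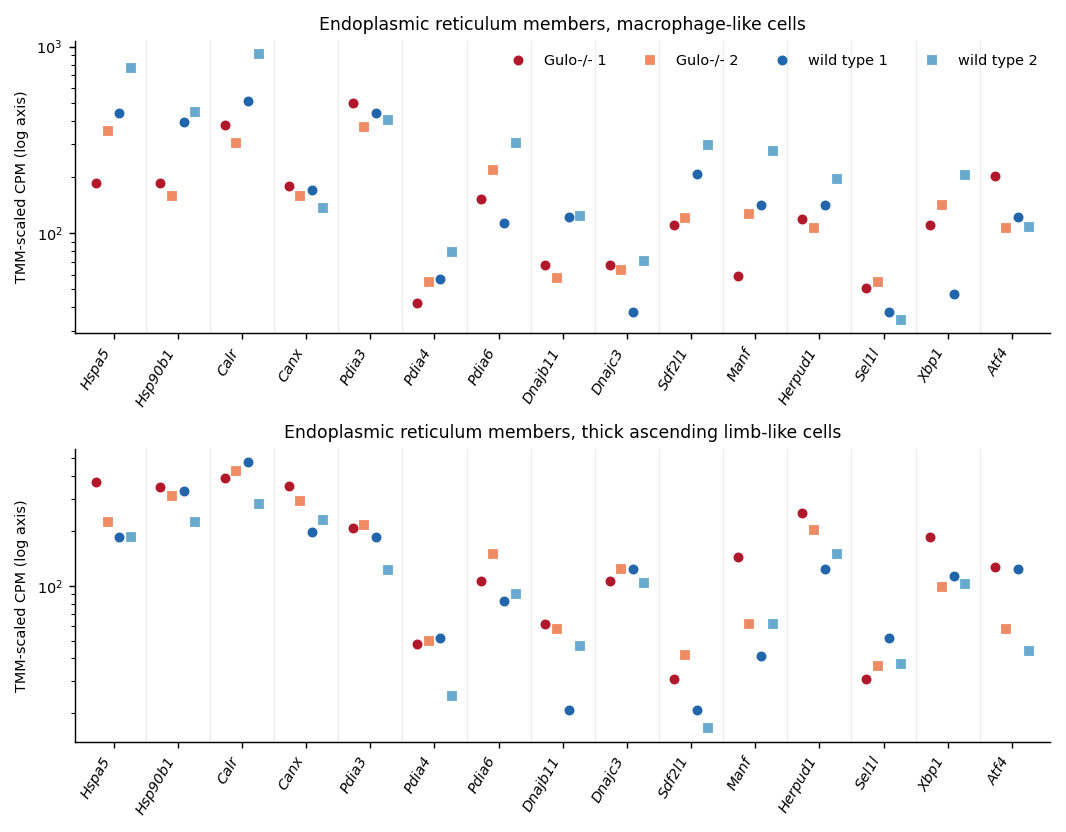
TMM-scaled CPM (y axis, log axis) of 15 ER members in macrophage-like cells (top) and thick ascending limb-like cells (bottom), with Gulo-/- libraries (reds) left of wild type libraries (blues). Hsp90b1 in macrophage-like cells (187 and 158 against 396 and 445) and Sdf2l1 in thick ascending limb-like cells (30.8 and 41.8 against 20.7 and 16.6) separate by genotype in opposite directions.

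Thick ascending limb-like cells numbered 84 and 2585 in Gulo-/- libraries and 26 and 153 in wild type libraries, so the wild type sums were shallow. There 46 of 5526 genes (0.832%) were called and 0 of 32 members. The unadjusted count was 2 members, against 6.64% of all genes, and DESeq2 called 0, against 0.109%. Endothelial markers summed to 147 and 118 CPM in Gulo-/- and 28.5 and 19.1 CPM in wild type, with 7, 9, 2 and 6 of 9 seen, and their part was not tested. The median ER change was 0.50 log2 units, beside 0.01 for all genes, and both Gulo-/- libraries lay above both wild type libraries for 9 of 32 members, against 19.1% of all genes, and below for 7, against 18.3%. Sdf2l1 had 30.8 and 41.8 CPM in Gulo-/- libraries, against 20.7 and 16.6 CPM in wild type libraries (1.17 ± 0.50, edgeR adjusted p = 0.604). Hspa1a had 89.0 and 98.2 CPM in Gulo-/- libraries, against 51.8 and 52.5 CPM in wild type libraries (0.86 ± 0.38, adjusted p = 0.642 in edgeR). Hspa1b had 212 and 45.8 CPM in Gulo-/- libraries, against 20.7 and 29.0 CPM in wild type libraries. Gulo-/- replicate 1 set its change of 1.96 ± 1.12, and without Gulo-/- replicate 2 it was called at 2.95 (adjusted p = 1.11e-05), among 1.73% of all genes.

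In distal convoluted and connecting tubule-like cells, 4 of 5070 genes (0.0789%) were called and 0 of 31 members. The unadjusted count was 5 members, all with negative changes, against 7.2% of all genes, and DESeq2 called 0, against 0.0197%. Thick ascending limb markers summed to 4993 and 4884 CPM in Gulo-/- and 788 and 2708 CPM in wild type, with 4, 6, 3 and 6 of 6 seen, and their part was not tested. Both Gulo-/- libraries lay below both wild type libraries for 7 of 31 members, against 20.6% of all genes, and above for 6, against 21.6%. Hsp90aa1 had 317 and 291 CPM in Gulo-/- libraries, against 586 and 511 CPM in wild type libraries (-0.85 ± 0.29, adjusted p = 0.506 in edgeR). Dnaja1 had 103 and 99.9 CPM in Gulo-/- libraries, against 284 and 146 CPM in wild type libraries (-1.02 ± 0.36). Without wild type replicate 2, Dnaja1 (-1.39) and Hsp90ab1 (-1.10) were called lower, among 2.06% of all genes. Hsp90ab1, Hspe1 and Manf were the other 3, and none of the 5 overlapped between genotypes.

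Over all kept barcodes 0 of 14118 genes and 0 of 38 members were called, a share of 0%. At an unadjusted p under 0.05 there were 4454 genes (31.5%) and 9 members, and DESeq2 called 6 of 38 members, against 18.3% of all genes. Both Gulo-/- libraries lay below both wild type libraries for 11 members, against 31.3% of all genes, and above for 8, against 34.1%. Hspd1 had 145 and 117 CPM in Gulo-/- libraries, against 485 and 387 CPM in wild type libraries (-1.74 ± 0.27, adjusted p = 0.0749 in edgeR), and Hspe1 588 and 328 CPM in Gulo-/-, against 1559 and 1330 CPM in wild type (-1.66 ± 0.38). Without Gulo-/- replicate 1, the pair was called, at -1.94 and -2.18, among 5.48% of all genes. In such sums fewer cells of a type and less RNA per cell cannot be told apart, and proximal tubule-like cells, where this pair was highest of the classes tested, were the class whose share differed most between genotypes. Within proximal tubule-like cells the changes were -0.87 and -0.64.

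A further comparison tested whether the genotype change in a class differed from that in proximal tubule-like cells of the same libraries. In endothelial-like cells 380 of 11973 genes (3.17%) differed, among them 2 of 38 members. The Cryab change was 1.69 ± 0.39 log2 units more positive in endothelial-like cells (edgeR adjusted p = 0.00229), where it was 2.78, than in proximal tubule-like cells, where it was 1.08. The Hspb1 change was 1.87 units lower there (difference -1.87 ± 0.41, edgeR adjusted p = 0.00204), from a joint fit of both classes. Fitted alone, neither change was called. In endothelial-like cells it was -0.82, on 2000 and 667 CPM in Gulo-/- against 4050 and 633 CPM in wild type. In proximal tubule-like cells it was 1.59, on 26.8 and 9.52 CPM in Gulo-/- against 8.21 and 4.03 CPM in wild type. The endothelial markers in proximal tubule-like cells were also higher in both Gulo-/- libraries, and their part in the difference was not tested. The difference for Hspb1 was also -1.87 in thick ascending limb-like cells, where it was not called (adjusted p = 0.0714 in edgeR). For thick ascending limb-like, distal tubule-like and macrophage-like cells 0 members differed, against 1.29%, 1.1% and 0.25% of all genes.

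Beyond the members, 48 other cytosolic chaperone and cofactor genes and 48 other ER genes were followed, of which 47 each were found. In none of the 5 classes or the sum of all barcodes was any called in edgeR. DESeq2 called 10 other cytosolic and 4 other ER genes over all barcodes, where it called 18.3% of all genes, and 0 in the classes. In proximal tubule-like cells 9 of 46 and 7 of 45 had an unadjusted p under 0.05, shares near the 16.3% over the whole fit. There 34 of 46 other cytosolic genes had a negative change and 29 of 45 other ER genes a positive one, with medians of -0.37 and 0.43 log2 units. Immediate early genes, which answer dissociation as well as injury, were read beside the heat shock arm, and 1 of them, Atf3, is also in the ER list. In thick ascending limb-like cells 8 of 14 were called higher in Gulo-/-, where 0.832% of all genes were called. Junb had 216 and 255 CPM there, against 62.2 and 41.4 CPM in wild type. In distal tubule-like, endothelial-like and macrophage-like cells 0 of 12, 0 of 19 and 0 of 18 were called. The summed list overlapped in macrophage-like cells (5848 and 15060 CPM in Gulo-/-, 13110 and 4505 CPM in wild type). It was narrowly apart in endothelial-like cells (11030 and 12630 against 11000 and 4872 CPM), and apart in distal tubule-like cells (1082 and 1562 against 734 and 634 CPM). In proximal tubule-like cells 3 of 20 were called higher (Klf4, Klf2 and Egr1), where 0.437% of all genes were called. The summed list was 582 and 817 CPM in Gulo-/- libraries of this class, against 285 and 250 CPM in wild type libraries. In the same cells the summed heat shock arm was 2825 and 3143 CPM in Gulo-/- libraries against 6780 and 3933 CPM in wild type libraries, and the part of dissociation was not tested.

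Methylation values come from the authors' deposited table, which holds 86510 regions that differed between genotypes, each with the gene they assigned to it. The table gives a mean level from 0 to 1 on sides 1 and 2 without naming which genotype each side is, and no coverage or replicate values, so differences are given as side 1 minus side 2. Of the 38 members, 28 in the authors' deposited table had at least 1 region, against 58.3% of all genes of the matrices, and 13 had a promoter region, against 21% of all genes. Of the heat shock members 16 of 17 had a region and 8 a promoter region. Of the ER members 12 of 21 had a region and 5 a promoter region.

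In promoters, side 1 was lower in 12 of the 14 member regions, and over all genes in 5704 of 7226. Cryab had 1 region in the authors' deposited table, at its promoter (chr9:50753145-50754052, mm10, 18 CpGs), with levels of 0.356 on side 1 and 0.586 on side 2. Regions at the starts of Hspd1 (chr1:55087590-55087941, 50 CpGs) and Dnajb1 (chr8:83607827-83608831, 113 CpGs) had levels of 0.13 and 0.118 on side 1 and 0.259 and 0.301 on side 2 in the authors' deposited table. The Hspa5 promoter region (chr2:34772345-34772614), 255 bases from the start, had 0.089 on side 1 and 0.206 on side 2 there. In the authors' deposited table the 2 promoter regions with side 1 higher were those of Hsp90ab1 (0.2 on side 1 and 0.095 on side 2) and Pdia6 (0.212 on side 1 and 0.098 on side 2). Bag3 had 5 regions in the authors' deposited table, 4 of them in introns and all lower on side 1, by up to 0.33 (difference -0.33). In the authors' deposited table Hspa1a had 3 regions and Hspa1b 2, all lower on side 1, with differences of -0.115 to -0.18. Since the sides are not named, no direction by genotype can be set beside the RNA values.

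The authors' deposited table of cluster markers lists, besides Cryab, Hspb1 and Hspa1a in a cluster named fEC, with natural log ratios of 2.19 and 1.93. A Hspb1 UMI was in 71.8% of the cells of that cluster and in 6% of others. The authors' deposited table also lists Hspb1 for EPI (0.878), and Hspa1a for CD-IC2 (0.919) and EPI (0.907). An Hspa1a UMI was in 61.0% of fEC cells, 69.5% of CD-IC2 cells and 62.8% of EPI cells. In that table, the authors' deposited one, Hspa1b, Hsp90b1, Pdia6, Canx and Xbp1 were listed for clusters named CD-IC1, CD-IC2 or CD-PC, with ratios of 0.359 to 0.755.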

How the data were processed

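Kidney single-cell libraries of 2 Gulo-/- and 2 wild type samples were analysed. The deposited matrices are unnormalized UMI counts, with mm10 and Seurat 2.3.4 named per the submitters' processing notes, and 0 sample columns were left unused. The authors' deposited methylation table gives region means as a fraction from 0 to 1, and the authors' deposited marker table gives natural log ratios and the fraction of cells with a UMI. How these were filtered is not stated.

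Barcodes with at least 500 UMIs, 200 genes and at most 50% mitochondrial UMIs were kept, and doublets were not called, but barcodes with markers of several classes were set aside as mixed. A class needed 3 UMIs from 2 of its markers and a lead of 2 over the next class. Its UMIs were summed per library where each library had 20 cells or more. edgeR 4.0.16 (R 4.3.3; TMM, filterByExpr, robust quasi-likelihood F test, Benjamini-Hochberg over all genes, threshold 0.05) compared genotypes, and classes with library as a block. DESeq2 1.42.0, another scaling, no filter, left-out libraries, sex and replicate blocks, another mitochondrial limit, the barcodes shared by the wild type libraries and a stricter gate were alternatives, and the fits were tested on simulated data. Shares of cells were thinned to 1500 UMIs and given with exact binomial intervals at 95%. A count of 0 allows 3.

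The members and lists were chosen with earlier results of these data known. Values per library are given for 22 effector genes, though not in every class, and for some other members. The rest, with members called between classes among them, are given as log2 values or counts.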

Additional observations from a re-analysis of the deposited data

Results flagged for a closer look

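The genotype change of 2 of 38 members differed between endothelial-like and proximal tubule-like cells of the same libraries by a test of the difference itself. In that fit 380 of 11973 genes (3.17%) differed. For Hspb1 the difference, endothelial minus proximal tubule, was -1.87 log2 units (edgeR adjusted p = 0.00204). For Cryab it was 1.69 log2 units (edgeR adjusted p = 0.00229). The 10 highest endothelial-like cells carried 65.5% and 70.0% of the Cryab UMIs of the class in Gulo-/- libraries. Principal cell and thick ascending limb markers were higher in endothelial-like cells of both Gulo-/- libraries, and their part was not tested. In proximal tubule-like cells the endothelial markers were higher in both Gulo-/- libraries, and their part in the Hspb1 difference was not tested.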

How the results depend on the processing

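The alternatives were followed for 43 changes of a member in a class. These were chosen from the same fits, as called in any of them or with an unadjusted p under 0.05 in the main one. Some values that passed were thus set in advance, and the tally is no measure of stability. Of 497 values, 447 kept their direction and side of the threshold and 48 passed it. Another 1 no longer did (Cryab in endothelial-like cells with sex as a block, 2.82). The last 1 reversed (Dnajb1 in endothelial-like cells without wild type replicate 1, 1.08, and -1.58 without wild type replicate 2). Members called over all barcodes were 0, against 6 by DESeq2 (18.3% of all genes called), 5 without a filter (12.3%) and 0 to 2 with a library left out (0% to 5.48%). In proximal tubule-like cells they were 0, against 4 by DESeq2 (3.6% of all genes), 9 without a filter (5.84%) and 0 to 1 with a library left out (0% to 1.92%). In thick ascending limb-like cells they were 0, against 1 without a filter (0.733%), 1 with sex as a block (0.344%) and 0 to 1 with a library left out (0.0937% to 1.73%). With a library left out the counts were 0 to 2 in distal tubule-like, 1 to 2 in endothelial-like and 0 to 4 in macrophage-like cells, beside 0.714% to 2.06%, 0.916% to 2.6% and 0% to 4.63% of all genes. Sex as a block gave 0 in endothelial-like cells, and no filter gave 1 in macrophage-like cells (0.879% of all genes). Thick ascending limb-like against proximal tubule-like cells gave 11 to 18 with a library left out, and calls over all genes in those fits were not compared. Promoter regions alone left 13 of the 28 members with a methylation region. The cause was not tested.

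Replicate numbers are only shared numbers, which coincide with depth, and same-numbered deviations correlated at 0.041 to 0.256. With the replicate block 4 members were called over all barcodes (8.75% of all genes) and 4 in proximal tubule-like cells (5.55%). The mitochondrial limit of 25% could not be fitted in thick ascending limb-like and distal tubule-like cells, nor the stricter gate in distal tubule-like cells, for want of cells. The cells with no thin limb marker, and the genes also tested within proximal tubule-like cells, were alternatives chosen after seeing the data.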
